A study of Drosophila melanogaster with 28 samples.

Results

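The RNA recovered with PABP from *Drosophila melanogaster* embryos collected 2 to 3 hr after egg laying was measured by RIP-seq, in which the RNA that co-purifies with a protein is sequenced beside the RNA of the lysate it was taken from, the input. A gene was included when its level exceeded 0.5 FPKM (fragments per kilobase of transcript, scaled to the mapped total) in both the PABP immunoprecipitate and its input. Of the 16862 fly genes listed, 7470 met this rule, and 16690 (99.0%) were matched to the BDGP6 annotation. PABP binding means here the immunoprecipitate FPKM divided by that of the input, on the log2 scale and shifted so that the median gene has a value of 0. A value of 1 therefore means a ratio 2-fold above that of the median gene.

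The study asked how maternal mRNAs are repressed and cleared as control of development passes from maternal to zygotic gene products. Its PABP series comprised 5 ages, 0–1, 1–2, 2–3, 3–4 and 4–5 hr, of *w1118* embryos, a laboratory strain with no added transgene. At each age PABP was captured with FLAG-tagged synthetic Fabs, which are antibody fragments, on anti-FLAG beads. A separate series used embryos that carry an eGFP-ME31B fusion, from which ME31B was captured with anti-GFP antibodies at the same ages, and S2 cells, a macrophage-like line derived from late embryos, were used for both proteins. The input and the immunoprecipitate of the *w1118* embryos of 2–3 hr were each represented by 1 library. No library of a control Fab was analysed here, so binding values rank genes within the immunoprecipitate and do not separate bound RNA from RNA carried over. Every collection was a pool of whole embryos, and differences below are between libraries with no replicate, so no test or p-value is given.

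PABP is the cytoplasmic protein that coats the poly(A) tail of mRNAs. Through eIF4G it joins the tail to the cap-binding complex, and it also contacts the enzymes that shorten tails. In the first hours of fly development the embryo is a syncytium in which translation of stored mRNAs depends strongly on the length of their tails. The third hour covers the cellularization of the blastoderm, the main wave of zygotic transcription and the loss of many maternal mRNAs.

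The input of 2–3 hr held an estimated 12.8 M reads and the immunoprecipitate 14.8 M, and the 10 libraries of the PABP embryo series ranged from 11.3 to 16.7 M. At these depths the minimum of 0.5 FPKM corresponds to 6.39 reads per kilobase in the input and 7.42 in the immunoprecipitate. The labelled age was checked against marker genes in the input. The 10 blastoderm genes examined, including *nullo* and *Sry-alpha*, summed to 1768 FPKM, against 36.8 at 1–2 hr and 276 at 3–4 hr. Adult female genes (yolk and chorion proteins) summed to 0.509 FPKM over 5 genes, of which *Yp1*, *Yp2*, *Cp36* and *Cp38* were at 0. The 4 hemocyte genes summed to 0.522 FPKM, and the 6 late-embryo genes to 28.4 FPKM. The inputs of 0–1 and 1–2 hr stood apart, with summed fly FPKM of 302478 and 125101 against 1021829 at 2–3 hr. The inputs were not scaled to each other, so part of the difference in marker sums from 1–2 hr comes with this total.

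PABP binding at 2–3 hr was spread broadly over the transcriptome. The quartiles lay at -0.73 and 0.74, and the 5th and 95th percentiles lay at -1.77 and 1.79, an 11.7-fold span. Binding exceeded 1 for 1355 genes (18.1%) and was below -1 for 1332 genes (17.8%). Counts within the gene lists below are to be read beside these shares. The extremes were both non-coding, at -7.88 for *snRNA:7SK* and 5.07 for *CR43963*, a long non-coding RNA at 0.685 FPKM in the input and 9.04 FPKM in the immunoprecipitate. A further 646 genes exceeded 0.5 FPKM in the input and not in the immunoprecipitate, and 205 showed the opposite. At the edge of the rule, *Alp1* and *CG30447* were just inside, with smaller values of 0.50046 and 0.50237 FPKM, and *Wnt2* and *CG7900* just outside, at 0.49968 and 0.49991 FPKM. *Act5C*, the cytoplasmic actin mRNA that the study used as its benchmark, had 1144 FPKM in the input and 178 FPKM in the immunoprecipitate, a binding of -1.34, and 89.2% of genes were above it. Centring on *Act5C* instead would add 1.34 to every gene, so that all directions below are relative to the median gene, and any gene or list median between -1.34 and 0 would lie above that reference. That value is given for the lists described whose median lay more than 1.5-fold below the median gene and would turn.

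**Figure D1:**
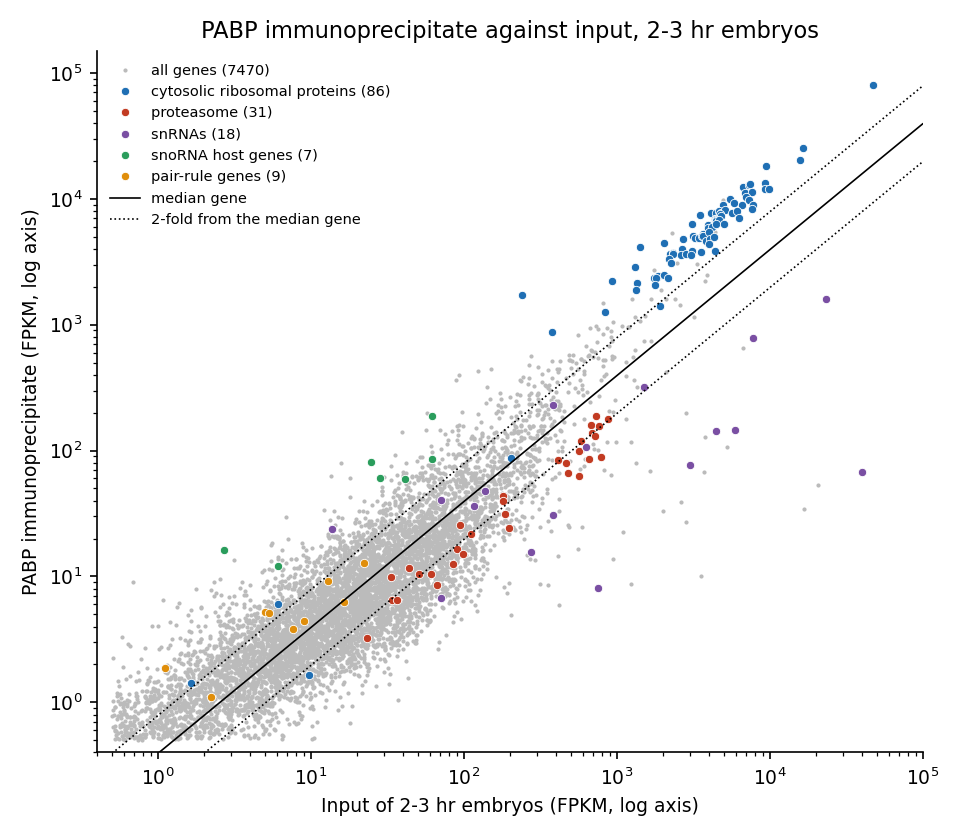
Level of each of 7470 genes in the input (x axis, FPKM, log axis) and in the PABP immunoprecipitate (y axis, FPKM, log axis) of 2–3 hr *w1118* embryos, 1 library each. The solid line is the ratio of the median gene and the dotted lines are 2-fold from it; 83 of 86 cytosolic ribosomal protein mRNAs (blue) lie above the upper line, and all 31 proteasome mRNAs (red) lie below the solid line, although their median is 0.23 above *Act5C*.

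The mRNAs of cytosolic ribosomal proteins were the most abundant group recovered with PABP. Their summed share of fly FPKM was 40.0% in the input and 71.8% in the immunoprecipitate. Of 88 listed genes 86 were measured, 83 were above 1 and 1 was below -1, against 18.1% and 17.8% of all genes, and their median was 1.89. *RpL41*, the smallest subunit, had 47707 FPKM in the input and 79446 FPKM in the immunoprecipitate, a binding of 2.08. *RpL23A* (chromosome arm 3L, 1666288 to 1668654, BDGP6) had 241 and 1724 FPKM, the highest binding of the group at 4.18, and *RpL28* (3L, 3220911 to 3222960) had 1423 and 4118 FPKM and a binding of 2.88. Both genes carry snoRNAs on the same strand, so part of their reads may belong to other RNAs.

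Some subunits encoded by a pair of genes differed between the copies, while *RpL34a* and *RpL34b* (2.58 and 2.61) and *RpS14a* and *RpS14b* (1.91 and 1.95) were close. *RpS10a* had 9.76 FPKM in the input and 1.65 FPKM in the immunoprecipitate, a binding of -1.22, while its partner *RpS10b* reached 2.48. *RpS15Ab* had 203 and 86.6 FPKM, a binding of 0.11, against 1.84 for *RpS15Aa*. *RpS5b* was at 0.91 against 1.57 for *RpS5a*, and *RpS19b* at 1.13 against 2.02 for *RpS19a*. In 3 of these 4 pairs the copy with the lower binding also had the lower input; *RpS5b*, at 1906 FPKM, did not. Reads of near-identical copies can be assigned to either, so the separate values of such pairs are uncertain.

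Other mRNAs of the translation machinery were spread on both sides of the median gene. Of 34 translation factor mRNAs 12 were above 1 and 3 below -1, with a median of 0.47. The highest were *eIF-5A*, whose product aids peptide bond formation, with 4957 FPKM in the input and 9751 in the immunoprecipitate (2.32), and *Ef1alpha48D*, the main carrier of aminoacyl-tRNA to the ribosome, with 5573 and 10026 FPKM (2.19). Of the other elongation factors, *Ef1gamma* (1.93), *Ef1beta* (1.51) and *EF2* (1.20) were above 1, *Ef1alpha100E* was at 0.90 and *eEF1delta* at -0.76 (884 and 206 FPKM). Among initiation factors, *eIF-4a*, the helicase of the cap complex, was at 1.67, *eIF-4E*, the cap-binding protein, at 1.28 (79.4 and 76.1 FPKM), and *eIF4G*, the scaffold that PABP contacts, at 1.29 (10.2 and 9.82 FPKM). The subunits of eIF2B, which recharges eIF2 with GTP, were lower, from 0.30 for *eIF2B-gamma* to -1.06 for *eIF2B-epsilon*. The lowest were *eIF5B*, which joins the subunits, at -1.56, and *eIF4AIII*, a nuclear component of the exon junction complex that falls in the list by name, at -1.38.

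PABP's own mRNA was among the more highly recovered. *pAbp* (2R, 18140078 to 18147191) had 276 FPKM in the input and 567 FPKM in the immunoprecipitate, a binding of 2.38. *Paip2*, which encodes a protein that displaces PABP from poly(A), had 15.9 and 29.1 FPKM (2.22), and *Pabp2*, the nuclear poly(A)-binding protein, had 29.0 and 28.1 FPKM (1.30). *wisp*, the cytoplasmic poly(A) polymerase of the egg, was at 0.92, *larp* at 0.06 and *hrg*, the nuclear poly(A) polymerase, at 0.03, whereas *orb*, which binds mRNAs for cytoplasmic polyadenylation, had 6.09 and 1.15 FPKM (-1.06). Over these 7 genes 3 were above 1 and 1 below -1, and the median was 0.92. The eGFP-ME31B input of the same age held more of these mRNAs than the *w1118* input, with 826 FPKM of *pAbp* and 125 FPKM of *Paip2*. With that input as the divisor the list median was -0.11, *pAbp* 1.41, *Paip2* -0.15 and *eIF4G* -0.20, so the sign of the last 2 genes and of the list depends on which lysate is taken as the reference.

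**Figure D2:**
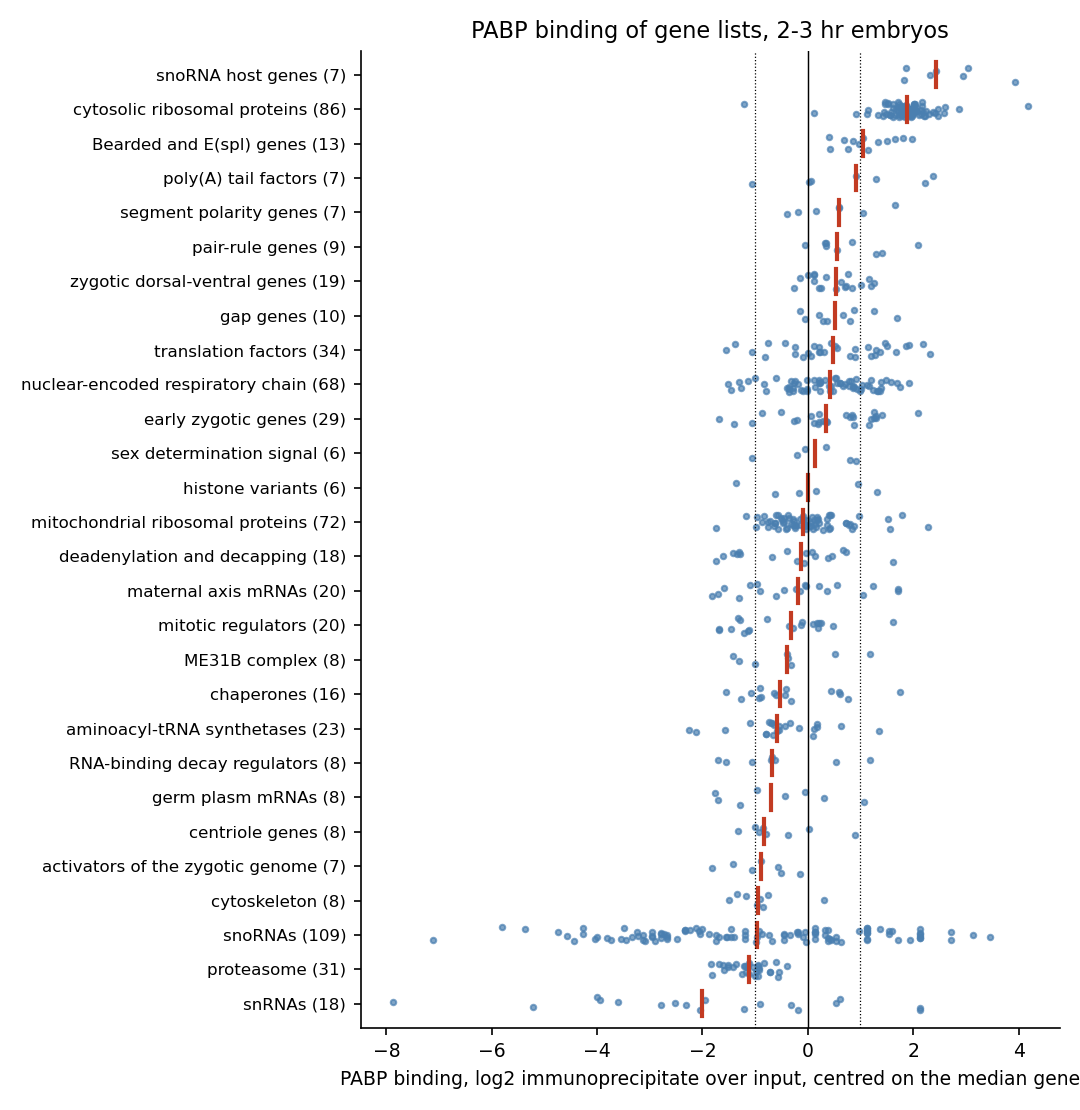
PABP binding at 2–3 hr (x axis, log2, centred on the median gene) of each gene (points) in lists with at least 5 measured members, sorted by the list median (red bars), with the number of measured genes in brackets. List medians run from -2.0 for snRNAs to 2.44 for snoRNA host genes, and with *Act5C* as the reference all points would move up by 1.34.

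Subunits of the proteasome, the protease that degrades ubiquitinated proteins, lay below the median gene without exception among the 31 measured. Of these 18 were below -1 and none above 1, and the median was -1.11, or 0.23 if *Act5C* were the reference. The highest were *Rpt5*, an ATPase of the regulatory cap, with 33.3 FPKM in the input and 9.97 FPKM in the immunoprecipitate (-0.40), and *Rpn5*, a lid subunit, with 94.1 and 25.4 FPKM (-0.54). The lowest were *Rpn12*, also of the lid, with 570 and 63.2 FPKM (-1.83), and *Prosbeta5*, the core subunit with chymotrypsin-like activity, with 793 and 89.1 FPKM (-1.81). Their median transcript was 1393 nt, below the 1916 nt of all measured genes, and the list median was -1.29 when genes were compared within deciles of transcript length.

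Several other housekeeping groups had medians below 0. Of 23 aminoacyl-tRNA synthetase mRNAs 4 were below -1, close to the 17.8% of all genes, and 1 above 1, and the median was -0.59, or 0.75 with *Act5C* as the reference. Within deciles of transcript length the synthetase median was -0.40. The isoleucine enzyme *Aats-ile* had 102 and 8.47 FPKM (-2.25), *Aats-val* had 32.9 and 2.96 FPKM (-2.13), and *Aats-tyr* had 87.5 and 87.8 FPKM (1.35). The 16 chaperone mRNAs had a median of -0.52. Among them 3 were below -1, again close to 17.8%, namely *Hsp60* at -1.55, *DnaJ-1* at -1.27 and *Hsp83* at -1.08. *Hsp67Ba*, at 0.614 and 0.815 FPKM, was the 1 above 1, and *Hsc70-4*, the abundant constitutive Hsp70, was at 0.76. Actin and tubulin mRNAs had a median of -0.94 over 8 genes (0.40 with *Act5C* as the reference), from -1.50 for *gammaTub23C* to 0.31 for the maternal *alphaTub67C*. The abundant *betaTub56D*, with 2085 FPKM in the input and 419 FPKM in the immunoprecipitate, was at -0.97.

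Nuclear genes of mitochondria fell near the median gene. Mitochondrial ribosomal proteins, 72 of 72 measured, had a median of -0.09, with 4 above 1 and 2 below -1. *mRpS5* was highest, with 41.7 and 80.2 FPKM (2.29), and *mRpS30* lowest, with 93.9 and 11 FPKM (-1.74). The 68 respiratory chain mRNAs had a median of 0.43, with 16 above 1 and 6 below -1. Small accessory subunits such as *ATPsynCF6* (558 and 834 FPKM, 1.92) and *ND-B16.6* (35.1 and 46.9 FPKM, 1.76) were at the top, and the large catalytic subunit *ATPsynbeta* (618 and 85.5 FPKM, -1.51) and the complex I core subunit *ND-49* (-1.45) at the bottom.

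RNAs that lack a poly(A) tail had the lowest values. The 7SK RNA, which holds the elongation factor P-TEFb inactive, had 40331 FPKM in the input and 67.3 FPKM in the immunoprecipitate (-7.88). The RNA of RNase P, which matures tRNAs, had 16718 and 34.5 FPKM (-7.58), and that of RNase MRP, which acts on ribosomal RNA precursors, 20832 and 53.2 FPKM (-7.27). Of 28 snRNA genes 18 were measured, 11 were below -1 and 2 above 1, with a median of -2.0. *snRNA:U2:34ABa* of the major spliceosome had 23513 and 1601 FPKM (-2.53), and *snRNA:U11* of the minor spliceosome 5964 and 146 FPKM (-4.01). The 2 above 1, *snRNA:U5:38ABa* and *snRNA:U5:38ABb*, had identical values of 13.7 and 23.7 FPKM (2.13) and cannot be told apart. *His2B:CG33868*, the only one of 72 replication-dependent histone genes measured, whose mRNA ends in a stem-loop instead of a tail, had 948 and 13.8 FPKM (-4.76), and 68 of the other histone genes were listed at 0 in the input. Together snRNAs, snoRNAs and the other small RNAs made up 19.4% of fly FPKM in the input and 1.64% in the immunoprecipitate.

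The histone variants, whose genes lie outside the repeated cluster and whose mRNAs are polyadenylated, spread around the median gene. *His4r* had 1936 FPKM in the input and 1888 FPKM in the immunoprecipitate (1.31), *His2Av* 1531 and 1168 FPKM (0.95), and *His3.3B* 1154 and 507 FPKM (0.16). *BigH1*, the linker histone of the early embryo, had 207 and 31.6 FPKM (-1.37). The 6 variants ranged from -1.37 to 1.31 with a median of 0.00.

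Small nucleolar RNAs spanned the whole scale, and their host transcripts were high. Of 312 snoRNA genes 109 were measured, 53 were below -1 and 24 above 1, with a median of -0.96 (0.38 with *Act5C* as the reference). *snoRNA:Psi28S-2566* had 3547 and 10.1 FPKM (-7.11), whereas *snoRNA:Or-CD12*, which lies inside *RpL28*, had 92.9 and 400 FPKM (3.45). Most measured snoRNAs (101 of 109) lie within or across a second gene of the same strand, so reads of host transcripts may be counted in them, and RNAs this short have uncertain FPKM. The 7 *Uhg* genes, spliced non-coding hosts whose introns release snoRNAs, were all above 1, from 1.82 for *Uhg2* (62.2 and 86.4 FPKM) to 3.93 for *Uhg7* (2.71 and 16.3 FPKM), with a median of 2.44. All 7 overlap the snoRNAs they carry, and *Uhg7* (3L, 1666288 to 1667307) also lies within *RpL23A*, with which it shares its start, so reads of these 2 genes cannot be fully separated.

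Genes annotated as ncRNA were high as a class, which holds mostly long non-coding RNAs but also the *Uhg* hosts and RNase P RNA. Of 260 measured genes annotated as ncRNA 159 (61.2%) were above 1 and 12 (4.62%) below -1, with a median of 1.13, against 16.5% and 17.7% of the 7017 protein-coding genes. Among them 238 carry a CR name, with a median level of 2.45 FPKM in the input and a median transcript of 730 nt, and 55 overlap another gene on the same strand. At such levels the minimum of 0.5 FPKM in the immunoprecipitate leaves out genes of low ratio, so the counts were partly set by the rule. Short protein-coding genes were also high: in their shortest decile, 191 to 824 nt, 41.5% were above 1 and 1.99% below -1. *CR42491* (X, 762615 to 763810), which 2 other genes overlap on the same strand, had 89.0 and 363 FPKM (3.37). The roX RNAs, which target the dosage compensation complex to the X chromosome, differed, with *roX1* at 97.1 and 204 FPKM (2.42) and *roX2* at 15.7 and 1.91 FPKM (-1.69).

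The zygotic patterning genes lay mostly above the median gene. These are switched on in nested domains, from gap genes to pair-rule and segment polarity genes along the head-to-tail axis and a separate set along the dorsal-ventral axis. Medians were 0.51 for 10 gap genes, 0.55 for 9 pair-rule genes, 0.60 for 7 segment polarity genes and 0.54 for 19 dorsal-ventral genes. In those lists 2, 3, 2 and 4 genes were above 1, against 18.1% of all genes, and none was below -1, against 17.8%. The rule requires more than 0.5 FPKM in the immunoprecipitate, so genes low in the input cannot fall below -1. The lowest of them are kept only if their ratio is high. Members at such levels included *hh* (0.522 FPKM in the input), *ems* (0.885) and *eve* (1.11), so these counts were partly set by the rule. Because whole embryos were lysed, fewer cells that make an RNA and less RNA per cell cannot be told apart in these levels.

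Among pair-rule genes, which divide the embryo into double-segment units, *eve* had 1.11 FPKM in the input and 1.86 FPKM in the immunoprecipitate (2.09), *ftz* 4.99 and 5.21 FPKM (1.41), and *opa* 16.4 and 6.24 FPKM (-0.05). The low level of *eve* gives an approximate counting error of 0.43 on its binding. On the gap gene list, *hkb*, which marks the termini, had 6.90 and 6.47 FPKM (1.25), *Kr* of the trunk 26.6 and 19.3 FPKM (0.88), and *cad*, which also has a maternal mRNA, 23.6 and 8.43 FPKM (-0.14). The value of *cad* was counted both in this list and among the maternal activators below. Along the dorsal-ventral axis, *rho*, a protease that releases EGF ligands, had 11.4 and 10.7 FPKM (1.25), *sog*, an inhibitor of Dpp, 4.00 and 3.62 FPKM (1.20), *sna* of the mesoderm 4.76 and 4.19 FPKM (1.16), and *twi*, its activator, 20.8 and 8.83 FPKM (0.11). Short intronless genes of the Notch pathway, the Bearded and E(spl) families, had the highest median of the patterning lists, but within deciles of transcript length their median of 0.50 was below those of segment polarity (0.90), gap (0.72) and pair-rule genes (0.64). All 13 measured were above 0 and 7 above 1, with a median of 1.05, from 0.40 for *Tom* (558 and 290 FPKM) to 1.97 for *Brd* (40.1 and 61.7 FPKM).

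The earliest zygotic genes were more mixed. Of 29 on that list 8 were above 1 and 3 below -1, against 18.1% and 17.8% of all genes, with a median of 0.35. This list shares many members with the patterning lists above. Those above 1 were, *halo* aside, already counted there: *eve*, *ftz*, *h*, *hkb*, *rho*, *sog* and *sna*. The limit set by the minimum of 0.5 FPKM applies to them here too. *Sry-alpha*, which organizes actin at the cellularization front, had 577 FPKM in the input and 71.0 FPKM in the immunoprecipitate (-1.68). *slam*, another furrow gene, had 246 and 67.9 FPKM (-0.51), *bnk* 58.4 and 24.2 FPKM (0.07) and *nullo* 19.1 and 8.59 FPKM (0.19). *halo*, which regulates lipid droplet transport, had 746 and 722 FPKM (1.30). The proneural gene *amos* (87.5 and 13.0 FPKM) was at -1.41 and *sc*, an X-linked element of the sex signal, at -1.06 (19.4 and 3.68 FPKM), while *Sxl*, the target of that signal, was at 0.80.

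Maternal germ plasm mRNAs and activators lay mostly below the median gene. The 8 mRNAs of the germ plasm, the posterior cytoplasm that founds the germ line, had a median of -0.70 (0.64 with *Act5C* as the reference). Within deciles of transcript length the median was -0.46. Of the 8, 3 were below -1 and 1 above 1, against 17.8% and 18.1% of all genes. *nos*, a translational repressor that patterns the abdomen (3R, 19157238 to 19160202), had 64.6 and 7.84 FPKM (-1.70), *aub*, a piRNA-binding protein, 37.5 and 4.33 FPKM (-1.77), and *osk*, which assembles the germ plasm, 41.2 and 8.33 FPKM (-0.96). *pgc*, which silences transcription in pole cells, had 126 and 60.8 FPKM (0.30), and *tud* 3.81 and 3.16 FPKM (1.07, or -0.01 with the eGFP-ME31B input as the divisor). The 7 maternal activators of the zygotic genome were all below 0, with a median of -0.89 (0.45 with *Act5C* as the reference) and 3 below -1. Within deciles of transcript length the median was -0.57. The activators included the pioneer factor *vfl* (24.2 and 5.15 FPKM, -0.89), *Clamp* (114 and 16.7 FPKM, -1.42) and the anterior determinant *bcd* (15.6 and 1.74 FPKM, -1.81). The 20 maternal axis genes had a median of -0.18, or 0.02 within deciles of length, with 4 above 1 and 5 below -1, near the shares of all genes. Of these, *grk*, the ligand of the oocyte, was at 1.71 (4.94 and 6.37 FPKM) and *spz*, the ligand of Toll, at 1.72 (2.06 and 2.67 FPKM), the latter at -0.67 when the eGFP-ME31B input was the divisor.

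Genes of the syncytial cell cycles had a median of -0.33 over 20, with 8 below -1, against 17.8% of all genes. The mitotic cyclins were alike, with *CycA* at 612 and 74.9 FPKM (-1.69), *CycB* at 696 and 113 FPKM (-1.28) and *CycB3* at 89.2 and 12.9 FPKM (-1.45). *fzy*, which directs their destruction, was at -1.69 (134 and 16.3 FPKM). *stg*, the phosphatase that times the first zygotic divisions, had 17.7 and 21.4 FPKM (1.61), the only one above 1. *gnu* and *png* of the kinase that starts these cycles were at 0.09 and 0.18, and *Myt1*, which inhibits Cdk1, at 0.19. Of 8 centriole genes the median was -0.83 (0.52 with *Act5C* as the reference), from -1.33 for *cnn* (72.1 and 11.3 FPKM) to 0.89 for *ana2* (7.35 and 5.35 FPKM). Within deciles of transcript length the centriole median was -0.47.

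The mRNAs of the repression and decay machinery fell on both sides. Of 8 genes of the ME31B complex, *me31B* had 689 FPKM in the input and 613 FPKM in the immunoprecipitate (1.18), *yps* 92.4 and 52.2 FPKM (0.52), *cup* 36.4 and 11.5 FPKM (-0.32), *tral* 190 and 57.3 FPKM (-0.38) and *Patr-1*, a decapping activator, 41.3 and 6.08 FPKM (-1.42). The 18 deadenylation and decapping genes had a median of -0.13, with 1 above 1 and 6 below -1, against 18.1% and 17.8% of all genes. *Not1*, the scaffold of the CCR4-NOT deadenylase, had 40.9 and 4.81 FPKM (-1.74), *twin*, its catalytic subunit, 40.7 and 10.0 FPKM (-0.68), and *DCP2*, the decapping enzyme, 6.78 and 8.18 FPKM (1.62). With the eGFP-ME31B input as the divisor *DCP2* was at -0.63. *smg*, which recruits the deadenylase to maternal mRNAs, had 98.9 and 24.5 FPKM (-0.67), and *brat*, which also binds mRNAs for decay, 71.4 and 9.54 FPKM (-1.56).

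Outside the lists, the protein-coding genes with the highest binding at 10 FPKM or more in the input were, beside *RpL23A*, *RpL28* and *RpL34b*, *CG4038*, annotated as *Gar1*, a component of snoRNA particles (15.7 and 79.8 FPKM, 3.69), *Ggamma1*, a G protein subunit (39.6 and 140 FPKM, 3.17), *CG15715* (57.3 and 199 FPKM, 3.14), *lolal*, a BTB protein (17.9 and 60.1 FPKM, 3.09), *CG32267* (2.90), *pre-lola-G* (2.83) and *Rbp2*, annotated as the initiation factor *eIF4H1* (18.1 and 42.6 FPKM, 2.58). After the histone, low values were those of *Spn*, a phosphatase scaffold (36.9 and 1.05 FPKM, -3.78), *CG14749*, annotated as the mRNA export factor *Gle1* (67.7 and 2.67 FPKM, -3.32), *Mi-2*, a chromatin remodeller (122 and 5.29 FPKM, -3.19), *Cpsf160*, a subunit of the 3′ end cleavage complex (68.9 and 3.02 FPKM, -3.17), *l(2)k09022* (-3.17), *CG7728* (-3.14), *Spt6*, a transcription elongation factor (118 and 5.92 FPKM, -2.97) and *Rbcn-3A* (-2.96). Transcripts of these low genes, the histone aside, were 2287 to 11139 nt long, and those of the high genes named here 489 to 3898 nt. Approximate counting errors on these binding values, where the transcript was at least 500 nt, were at most 0.16.

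Binding at 2–3 hr was lower for longer transcripts. Across 7017 protein-coding genes Spearman's rho was -0.309 with the longest annotated transcript and -0.428 with its coding sequence, whereas it was -0.015 with the 3′ UTR, -0.022 with the 5′ UTR and -0.092 with the number of exons. These are correlations across genes of 1 library pair, and genes are not independent replicates. Without ribosomal protein genes the values for the transcript and the coding sequence were -0.292 and -0.414. In the shortest decile of genes, 191 to 824 nt, the median was 0.81, with 41.5% above 1 and 1.99% below -1. In the longest, 5119 to 23486 nt, the median was -0.55, with 9.12% above 1 and 31.5% below -1. FPKM divides by a fragment-corrected length in both libraries, and the part of that step in this relation was not tested. List medians were adjusted within other deciles, cut over all measured genes with a known length, non-coding RNAs included. Within these, the median of the ribosomal protein list was 1.40 against 1.89 without the adjustment, and that of mitochondrial ribosomal proteins moved from -0.09 to -0.63.

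**Figure D3:**
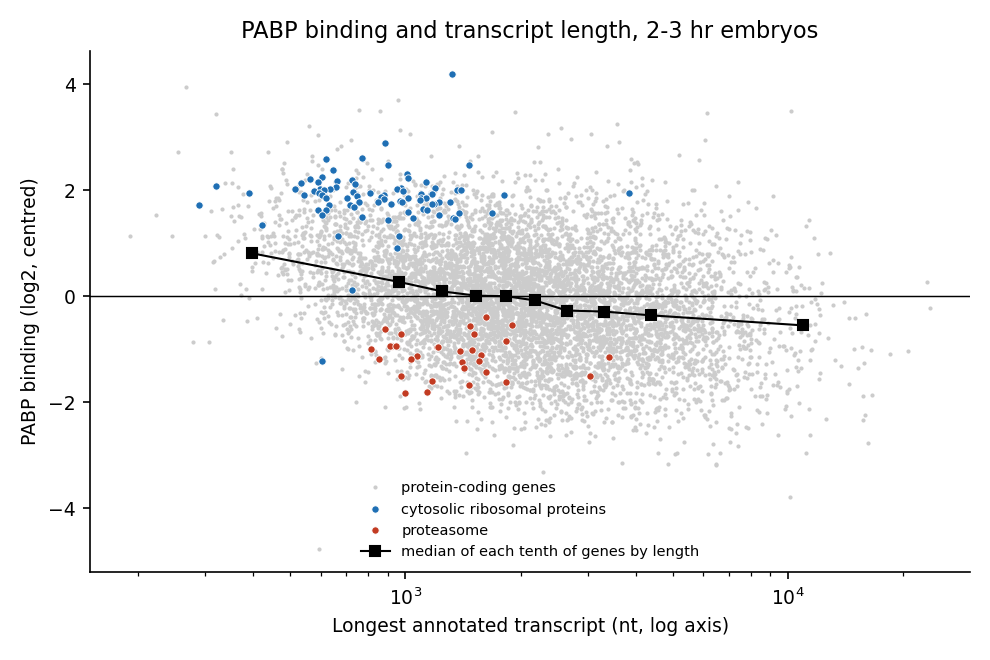
PABP binding at 2–3 hr (y axis, log2, centred) against the longest annotated transcript (x axis, nt, log axis) of 7017 protein-coding genes (grey), with cytosolic ribosomal proteins in blue, the proteasome in red and black squares for the median of each decile of genes by length, placed midway on the log axis between its shortest and longest gene. The decile medians run from 0.81 to -0.55, and proteasome mRNAs, 0.23 above *Act5C* at their median, lie below the squares at lengths where ribosomal protein mRNAs lie above them.

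Genes were next grouped by how their level changed, using only the inputs of the eGFP-ME31B series, which do not enter PABP binding. At 5 FPKM or more at 0–1 or 2–3 hr, 268 protein-coding genes had lost 4-fold or more of their level between these ages, 163 had gained 4-fold or more, and 5645 lay between. The median PABP binding was 0.06 for genes whose RNA was cleared, 0.54 for those whose RNA was gained and -0.20 for the rest, and 9.70%, 27.6% and 12.4% were above 1. Below -1 were 7.09% of cleared, 7.98% of gained and 21.0% of the remaining mRNAs. At low input levels the minimum of 0.5 FPKM in the immunoprecipitate leaves out genes of low ratio. The shares of groups with low levels at 2–3 hr, such as cleared mRNAs, can therefore be partly set by the rule. Within deciles of length the medians were 0.00, 0.37 and -0.15. Examples of cleared mRNAs at the ends were *CG9547*, with 10.1 and 0.513 FPKM in the input and immunoprecipitate of *w1118* (-2.95), and *CG6770*, with 14.2 and 33.1 FPKM (2.56). Among gained mRNAs, *Elba3*, part of an insulator complex of the early embryo, had 354 and 27.4 FPKM (-2.35), *Bro*, a partner of the transcription factor Runt, 421 and 41.5 FPKM (-2.0), and *Ilp4*, an insulin-like peptide of the mesoderm, 91.7 and 145 FPKM (2.01).

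PABP binding at 2–3 hr ranked genes most like the neighbouring later ages. Spearman's rho across genes was 0.804 with 3–4 hr (7359 genes), 0.784 with 4–5 hr (7313), 0.626 with 1–2 hr (6234), 0.566 with 0–1 hr (6407) and 0.478 with S2 cells (6505). From 1–2 to 2–3 hr binding was higher by more than 1 for 923 of 6234 genes (14.8%) and lower by more than 1 for 578 (9.27%). From 2–3 to 3–4 hr the same counts were 349 (4.74%) and 451 (6.13%) of 7359 genes. Both comparisons share the 2–3 hr libraries, and the 1–2 hr input is one of those that stood apart.

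Between 1–2 and 2–3 hr the proteasome list was the group with the largest median difference among the housekeeping lists. The median difference was -0.96, with 12 of 31 genes lower by more than 1 and none higher by more than 1, and the list median went from 0.10 to -0.93 over the genes shared by both ages. Mitochondrial ribosomal proteins had a median difference of -0.63 (20 of 72 lower, 3 higher), whereas cytosolic ribosomal proteins had -0.05 (4 of 84 lower, 4 higher). *Vha36-1*, a subunit of the vacuolar proton pump, differed by -2.52, among the 5 lowest differences of genes at 10 FPKM or more in both inputs. *smg* differed by 1.52, *CycE*, the cyclin of S phase, by 1.49 and *vfl* by 1.13. Early zygotic genes had a median difference of 0.72 over the 17 measured at both ages (4 higher, none lower, against 14.8% and 9.27% of all genes). Those left out at 1–2 hr included *hkb* (0.0886 FPKM in the input, 1.41 in the immunoprecipitate) and *rho* (0.187 and 1.67). The minimum in that low input removes genes of high ratio at 1–2 hr, so this difference was partly set by the rule. For gap genes the median difference was 0.89, but -0.05 at 5 FPKM or more in both inputs. With the eGFP-ME31B inputs as divisors the proteasome difference was -0.72 and that of ribosomal proteins 0.98.

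Between 2–3 and 3–4 hr the proteasome median difference was 0.03 and that of cytosolic ribosomal proteins 0.05, with none of 31 and none of 86 genes past 1 in either direction. The 7 *Uhg* hosts had a median difference of -0.88 with 3 lower by more than 1, and the 7 poly(A) tail factors -0.67 with 2 lower. *me31B* differed by -2.74: its levels in the immunoprecipitates were 4507, 613 and 174 FPKM at 1–2, 2–3 and 3–4 hr, and in the inputs 145, 689 and 734 FPKM. The eGFP-ME31B inputs held 1718, 1618 and 778 FPKM of *me31B* at these ages. The *w1118* inputs differed widely in summed fly FPKM and were not scaled to each other, so they do not show a rise in *me31B* RNA. *CG17018*, annotated as *Marf1*, differed by -3.09, but 17 other genes overlap it on the same strand. *eIF5*, an initiation factor, differed by -1.96, *Cam*, calmodulin, by -1.35 and *Paip2* by -1.24. *pcm*, the 5′ to 3′ exonuclease, differed by 1.14. With the eGFP-ME31B inputs as divisors the median difference was -0.53 for the proteasome and -0.78 for cytosolic ribosomal proteins.

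**Figure D4:**
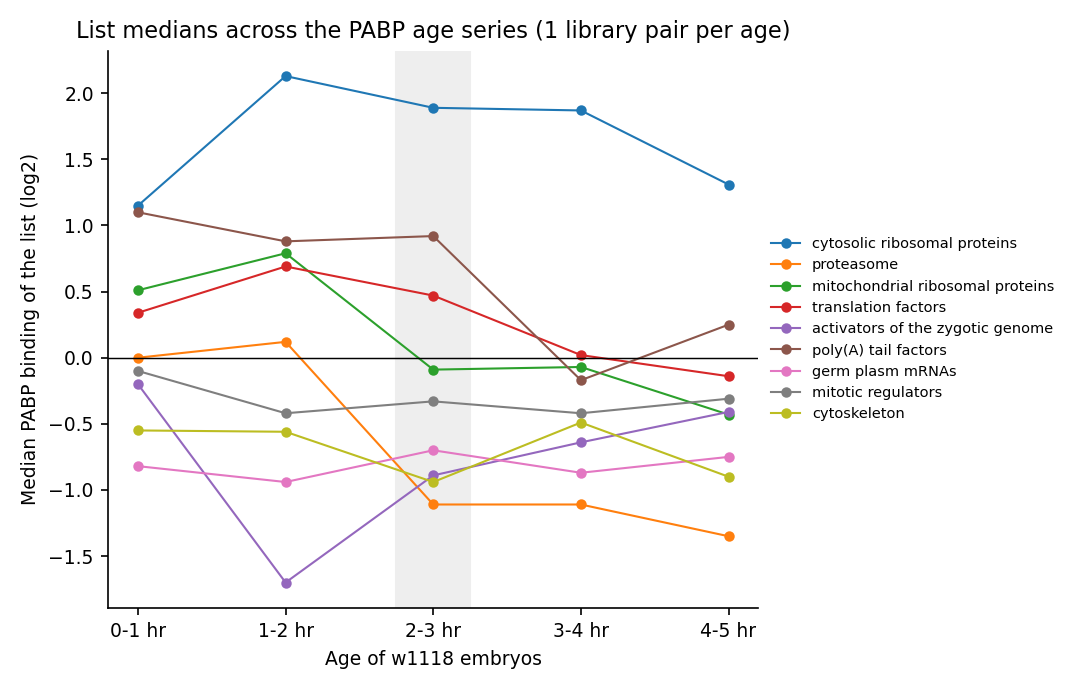
Median PABP binding (y axis, log2, centred at each age) of 9 gene lists at 5 ages of *w1118* embryos (x axis), with 1 pair of libraries per age and the 2–3 hr age shaded. Relative to the median gene of each age the proteasome median is 0.12 at 1–2 hr and -1.11 at 2–3 hr (0.23 at 2–3 hr if *Act5C* is the reference), while that of cytosolic ribosomal proteins is 2.13 and 1.89.

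ME31B, a DEAD-box helicase that represses maternal mRNAs, was measured at the same age in the other strain, from another lysate. Across 6981 genes measured with both proteins Spearman's rho was 0.274. PABP binding exceeded ME31B binding by more than 1 for 1949 genes (27.9%) and was lower by more than 1 for 1697 (24.3%). Every one of the 84 ribosomal protein mRNAs measured with both was higher with PABP by more than 1, with a median difference of 3.48 (medians 1.98 and -1.44). The 5 largest differences of genes at 10 FPKM or more in both inputs included *eIF-5A* (5.43), *RpL41* (5.09) and *Cam* (5.04). Respiratory chain mRNAs had a median difference of 0.99, with 32 of 66 higher by more than 1, and actin and tubulin mRNAs 1.48, with PABP binding itself below the median gene.

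Some maternal groups lay on the other side. Germ plasm mRNAs had a median difference of -1.45 and mitotic regulators -1.03, with 11 of 20 lower with PABP by more than 1. Maternal axis mRNAs were at -0.63, with 8 of 20 lower and 1 higher, against 24.3% and 27.9% of all genes. The 7 maternal activators of the zygotic genome were at 0.88, with 3 higher with PABP by more than 1 and 1 lower. On the scale of each protein's own median gene, *nos* was at 2.08 with ME31B and -1.70 with PABP, *gnu* at 2.94 and 0.09, *pgc* at 2.89 and 0.30, and *exu* at 1.45 and -1.31. For the proteasome the median difference was -0.90, and ME31B binding ranged from -2.55 for *Prosbeta3* to 2.35 for *Rpn11*, while PABP binding of every subunit measured was below the median gene. *bcd* (-1.18 with ME31B), *Act5C* (-1.73) and *fzy* (-3.34) were low with both. The inputs of the strains differed at this age: relative to the median gene, zygotic dorsal-ventral genes were higher in *w1118* (median log2 ratio 1.13), and germ plasm mRNAs were lower (-1.18). Exact age, strain and the antibody cannot be told apart in this comparison.

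**Figure D5:**
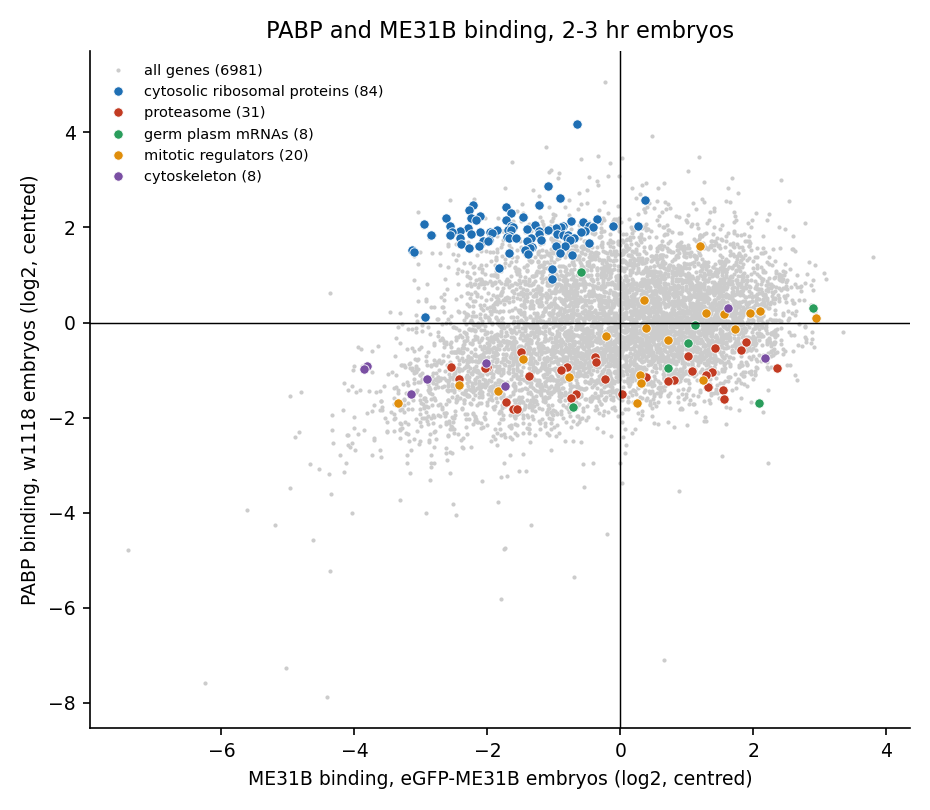
PABP binding in *w1118* embryos (y axis) against ME31B binding in eGFP-ME31B embryos (x axis), both as log2 immunoprecipitate over own input at 2–3 hr, centred on the median gene of each series, for 6981 genes with 5 lists coloured. The 84 ribosomal protein mRNAs lie mostly at the upper left, and proteasome mRNAs spread along the x axis below 0 on the y axis, where 0 is the median gene and *Act5C* lies at -1.34.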

How the data were processed

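Per the labels and the methods of the study, the authors depleted rRNA with Ribo-Zero Gold, prepared strand-specific TruSeq libraries, mapped reads to the fly (dm6) and worm genomes with STAR 2.5.2a and quantified genes with Cufflinks 2.2.1; worm RNA had been added to the samples. The deposited values are FPKM per gene and library, used without the worm scaling, since centring removes any factor common to a library. All columns used matched a sample. Columns of *png50* libraries were not used.

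Binding was log2 of immunoprecipitate over input FPKM, with no pseudocount, minus the median gene. The members and gene lists were chosen with earlier results of these data known, and *Bsg25A*, a zygotic gene, was taken out of the germ plasm list after its value was seen. Genes named are those the study names for an RNA measurement, the 10 highest and lowest protein-coding and 5 highest and lowest other genes at 10 FPKM or more in the input, the 2 highest and lowest of each list, and the 5 largest differences each way between ages and proteins; other list members were named after their values were seen. One gene that the rule names is not reported here. Counts in a list use 1 and -1 on the log2 scale. Comparisons between ages or proteins were recentred on the genes measured in all 4 libraries.

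Depth was estimated from FPKM steps: in 2478 single-transcript genes of at least 1500 nt, values cluster at what 1 read is worth, taking fragments of 200 nt. Counting errors derived from it cover counting only. Gene models came from Ensembl's BDGP6.54 annotation, release 115, which shares the dm6 coordinates. The steps were checked on simulated data with known depth and binding. Alternatives changed the filter, the pseudocount, the divisor, the centring, the length adjustment and the genes kept. GC content and sequence motifs were not analysed here. Computation used scipy 1.17.1 and numpy 2.4.6 under Python 3.11.15, tables pandas 2.3.3, and plots matplotlib 3.10.9.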

Additional observations from a re-analysis of the deposited data

Results flagged for a closer look

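Lists of at least 5 genes whose medians lay on opposite sides of the median gene with PABP and with ME31B at 2–3 hr, each by more than 1.5-fold, were singled out, and the difference was not tested. Cytosolic ribosomal protein mRNAs were higher with PABP by a median of 3.48, and poly(A) tail factor mRNAs by 0.92. Of the 7 poly(A) tail factors 3 were higher by more than 1 and 1 lower, against 27.9% and 24.3% of all genes. With the eGFP-ME31B input as the divisor their PABP median was -0.11, so this list would then not have been singled out. Germ plasm mRNAs differed by a median of -1.45, being lower with PABP. Other lists also lay on opposite sides, but by less than this with at least 1 of the proteins.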

How the results depend on the processing

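Of 75 values that summarise a comparison under an alternative, 56 stayed close to the reported value, as did 585 of 671 list medians. Centring on *Act5C* gave 4631 genes above 1 and 113 below -1. Lists with a median over 1.5-fold above the median gene, 5 as reported, numbered 3 with any FPKM above 0, 11 with the eGFP-ME31B input, 22 centred on *Act5C*, 8 within length deciles and 3 without overlapping genes. Those under it by as much, 9 as reported, numbered 1 centred on *Act5C* and 5 within length deciles. Within deciles the synthetases, zygotic activators, germ plasm, centriole and RNA-binding decay regulator lists dropped out, and mitochondrial ribosomal proteins came in. Centring on *Act5C* turns every value between -1.34 and 0. Of list medians over 1.5-fold below the median gene it turned the proteasome (0.23), synthetases (0.75), snoRNAs (0.38), zygotic activators (0.45), germ plasm (0.64), centriole (0.52), RNA-binding decay regulators (0.66) and cytoskeleton (0.40), and, of genes below -1 that the rule names, the binding of *CycB* (0.07), *DnaJ-1* (0.07), *RpS10a* (0.12), *cnn* (0.02), *exu* (0.03), *orb* (0.28) and *sc* (0.29). The eGFP-ME31B input as divisor turned the poly(A) tail factors (-0.11), *CG17018* (-0.91), *DCP2* (-0.63), *Paip2* (-0.15), *eIF4G* (-0.20), *spz* (-0.67) and *tud* (-0.01). From 1–2 to 2–3 hr, at 5 FPKM or more in both inputs, 405 genes were higher and 164 lower, and gap genes had a median of -0.05. With eGFP-ME31B inputs 943 were lower, and the differences of snRNAs (-0.41), *stg* (-0.81) and *twin* (-0.04) changed sign. From 2–3 to 3–4 hr, 210 were higher and 274 lower at 5 FPKM, 222 and 289 above 0.5 FPKM in all 10 libraries (snRNAs 0.09), 218 higher with a pseudocount of 1 FPKM, and 881 and 970 with eGFP-ME31B inputs (*bcd* -0.02). With the *w1118* input dividing both proteins, PABP minus ME31B was -1.56 for *CG17018*, -1.43 for *DCP2* and -0.70 for *eIF4G*. The causes were not tested. No paired analysis was possible because each condition had 1 library. RNAs under 500 nt and genes near 0.5 FPKM are the least precisely measured.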

Other observations

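The inputs of *w1118* and eGFP-ME31B embryos held 97.1 and 134 FPKM of *roX1* and 15.7 and 3.96 FPKM of *roX2*, and from 2–3 to 3–4 hr the PABP binding of *roX1* differed by -2.0. Among RNAs gained by 2–3 hr, *CG14317* had 919 FPKM in the input and 63.5 FPKM in the immunoprecipitate (-2.51), and *CG14111* had 33.4 and 75 FPKM (2.51). *CR42491* differed by 6.15 from 1–2 to 2–3 hr and by -2.83 from 2–3 to 3–4 hr, comparisons that share the 2–3 hr libraries. On the same strand 2 other genes overlap it. Its input levels at 1–2 and 2–3 hr were 60.1 and 89.0 FPKM in *w1118*, but 10.1 and 18.5 FPKM in eGFP-ME31B embryos.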
